A study of Mus musculus with 18 samples.

Results

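The data described here are the young mice of a fracture series: 3 arrays of callus taken 3 days after a femur fracture against 3 arrays of callus taken 1 day after it, 6 of 18 arrays in all. They were chosen by their titles, and every probe set of the deposited signal table was used. The mice were female and the young ones were 6 weeks old. The labels of each sample name the strain as BALB/c while the design text of the series names c57BI6, so the strain is not settled here. No transgene, mutation or drug is named for any group, and the sources used here do not give the fixation of the bone or the hour of collection. Old mice (8-month retired breeders) at days 1 and 3, 3 arrays each, serve below to test whether a change differed with age, and day 5 of the young mice is given as a level. All 18 arrays also enter the estimate of spread behind every test. No unfractured bone was among the arrays, so every change is between days after injury and not against rest. The labels call the arrays replicates without saying that each came from a separate animal. The p-values rest on the spread between replicate arrays, pooled over the groups of all 18 arrays, which may be in part technical.

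A fracture callus begins as a blood clot with torn marrow, periosteum and muscle. Neutrophils enter first, drawn by CXC chemokines, and monocytes follow and mature into macrophages that clear dead cells and matrix. Interleukin 6 and its relatives signal through the shared receptor subunit gp130 and the transcription factor STAT3, which turns on acute phase genes and its own inhibitor SOCS3. Skeletal progenitors then proliferate and lay down a collagen-rich matrix that becomes cartilage and bone.

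RNA was hybridised to Affymetrix Mouse Genome 430 2.0 arrays, on which each probe set reports the brightness of a transcript. A level here is log2(signal + 16) after quantile normalization. The median probe set lies at 6.03 and the lowest value possible is about 4. Changes are day 3 minus day 1 on that scale, ± the standard error of the fit (n = 3 arrays a day), so 1 is a 2-fold change of signal + 16, which understates the change of dim genes. A gene was called when its p-value, adjusted over all 27746 probe sets tested, was under 0.05. The 3 arrays of a day are listed in the order of their replicate numbers, and levels are not compared between genes, since probe sets differ in brightness. In a tissue of many cell types, fewer cells of a type and less RNA per cell cannot be told apart.

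Marker genes of bone, cartilage and neutrophils gave signal on these arrays. A gene counts as measured only if it exceeded the array median on at least 3 of the 18 arrays. Counts above the median are in part fixed by that filter, so they do not test the tissue label. Of 20 bone genes measured, 17 to 19 lay above the array median on day 1 and 17 to 18 on day 3; the bone matrix gene Ibsp had levels of 11.93, 12.18 and 13.03 on day 1 and 12.63, 12.43 and 11.88 on day 3. All 12 neutrophil granule genes lay above the array median on every young array of both days. The cartilage list was thinner, with 9 to 13 of 22 genes above the median on day 1 and 12 to 17 on day 3. The 3 arrays of day 3 were less alike than those of day 1: correlations over probe sets were 0.94 to 0.949 within day 1, against 0.81 (arrays 1 and 2), 0.905 (1 and 3) and 0.899 (2 and 3) within day 3. Array 1 of day 3 lay nearest to day 1 (0.898 to 0.927 with its arrays) and array 2 farthest (0.812 to 0.823). Skeletal muscle RNA followed that order: the summed signal of 27 sarcomere genes was 295000 to 357000 on day 1 and 252000, 6910 and 190000 on the 3 arrays of day 3. Red cell precursor genes summed to 16900 to 26000 on day 1 and to 7790, 5940 and 2230 on day 3. The ratio of 3' to 5' probe sets of Actb, a measure of RNA length, was 2.04 to 2.13 on day 1 and 1.56, 2.52 and 2.37 on day 3. On the old arrays it was 2.27 to 2.67 on day 1 and 1.37 to 1.6 on day 3. Median signals before normalization were 68.05 to 72.38 and 35.99 to 45.77 on these old arrays, against 52.52 to 60.69 and 45.16 to 57.09 on the young. The part of these shifts in the comparisons of the ages below was not tested.

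Of 27746 probe sets tested, 3690 (13.3%) were called, 2170 higher and 1520 lower on day 3. By genes, 1183 of 12921 rose (9.16%) and 886 fell (6.86%), and the median change over all genes was 0. For 14.9% of genes every day 3 array lay above every day 1 array, and for 13.2% every one lay below. Of 2069 called genes, 1903 had no overlap between the days. The largest rises and falls named here and below were picked among those 1903, so their lack of overlap is no separate result. The largest falls were in muscle stress genes and inflammatory genes, among them Xirp1 (-4.89 ± 0.73, adjusted p = 0.000672), an actin-binding protein of injured muscle, Cxcl3 (-4.45 ± 0.47, adjusted p = 5.4e-05), a neutrophil attractant, and Il6 (-3.69 ± 0.51, adjusted p = 0.000386). The largest rises were Trem2 (3.75 ± 0.28, adjusted p = 3.73e-06), a lipid receptor of macrophages, Aif1 (3.26 ± 0.42, adjusted p = 0.000211), a macrophage calcium-binding protein, and Sfrp2 (3.12 ± 0.39, adjusted p = 2e-04), a secreted Wnt-binding protein. The fitted spread came from all 18 arrays; with the 6 arrays alone, 336 probe sets passed, and 71 of 191 called genes chosen for the text kept their call. Centring arrays on their medians in place of quantile normalization gave 3241, of which 73.7% were higher against 58.8% here. Without array 1 of day 3 the count was 7040, without array 2 it was 2437 and without array 3 it was 1517; without array 1, 2 or 3 of day 1 it was 2002, 2632 and 2207.

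The IL-6 family fell from day 1 to day 3. Il6 had levels of 10.06, 9.36 and 10.89 on day 1 and 5.92, 6.39 and 6.91 on day 3. Every array of day 3 lay below every array of day 1, and the level fell by 3.69 ± 0.51 (12.9-fold, adjusted p = 0.000386). Il11, a relative that acts on stromal and bone cells, measured 7.64, 8.72 and 10.22 on day 1 and 7.24, 4.61 and 5.46 on day 3, and it fell by 3.09 ± 0.61 (adjusted p = 0.00403). Array 1 of day 3 was the highest of its day, close to the lowest day 1 array. With the 6 arrays alone the call of Il11 was lost (adjusted p = 0.0909). Osm, oncostatin M, a product of myeloid cells, stood at 7.31, 7.64 and 7.97 on day 1 and 6.82, 6.38 and 5.86 on day 3 (-1.28 ± 0.32, adjusted p = 0.0143), and Lif and Clcf1 fell (-1.8 ± 0.52 and -1.12 ± 0.33). These 5 were all the calls among 12 measured cytokines, a list of the IL-6 and IL-1 families that also holds Csf1 and Il34. The median change of the 12 was -1.01 against 0 over all genes. Il1b, the leading cytokine of the IL-1 branch, did not pass the test: its levels were 9.76, 9.07 and 10.07 on day 1 and 7.07, 9.41 and 8.68 on day 3, so that array 2 of day 3 lay within the day 1 range (-1.25 ± 0.51, adjusted p = 0.112). Over the 6 fits that each left out 1 array, 2 to 5 of the 12 fell. The lowest counts, 2 and 3, came without array 3 of day 1 and array 3 of day 3.

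Receptors of these and related cytokines were called in both directions. Il6ra, the specific IL-6 receptor chain, had levels of 7, 7.25 and 7.04 on day 1 and 6.92, 6.97 and 6.57 on day 3 (adjusted p = 0.379), and Il6st, which encodes gp130, had 9.95, 10.08 and 10.15 on day 1 and 10.34, 8.38 and 9.18 on day 3 (adjusted p = 0.136). Array 1 of day 3 held the highest Il6st level of the 6. Osmr, the oncostatin M receptor chain, fell by 1 ± 0.27 (adjusted p = 0.0242), and Il1r2, a decoy receptor that binds IL-1 without signalling, fell by 1.66 ± 0.4 (adjusted p = 0.0122). Csf1r, the receptor for macrophage colony-stimulating factor, was the only member of the list of 18 that rose, from 10.58, 10.65 and 10.63 to 11.58, 11.48 and 11.54 (0.91 ± 0.18, adjusted p = 0.00437). In total 3 of the 18 cytokine receptors fell, with a median change of -0.21. Leaving out 1 array ended the calls of Lif (without day 1 array 3 or day 3 array 2, adjusted p up to 0.147), Osm (without day 1 array 3 or day 3 array 3, adjusted p up to 0.0827), Clcf1 (without day 1 array 1, 2 or 3 or day 3 array 3, adjusted p up to 0.166), Osmr (without day 1 array 1 or 3 or day 3 array 2, adjusted p up to 0.102) and Il1r2 (without day 1 array 1 or 3, adjusted p up to 0.0608).

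Targets of the pathway fell with the ligands: 11 of 16 STAT3 and acute phase genes fell and none rose, with a median change of -1.27. Socs3, the feedback inhibitor of gp130 signalling, had levels of 10.61, 10.53 and 11.23 on day 1 and 9.29, 8.53 and 9.28 on day 3 and fell by 1.76 ± 0.26 (adjusted p = 0.000588). Stat3 itself fell by 1.39 ± 0.28 (adjusted p = 0.00466). Cebpb, a transcription factor of the acute phase response, went from 11.9, 11.69 and 11.83 to 10.35, 9.89 and 9.99 (-1.73 ± 0.24, adjusted p = 0.000459), and Pim1, a STAT3-induced kinase, fell by 1.63 ± 0.24 (adjusted p = 0.000588). In each of these the days did not overlap. Saa1, a serum amyloid protein, was near the floor on day 3: its levels were 8.76, 7.25 and 9.01 on day 1 and 5.44, 5.34 and 5.25 on day 3 (-2.99 ± 0.59, adjusted p = 0.00389). Serpina3n, a protease inhibitor of inflammation, showed the widest spread on day 3, 10.04, 4.78 and 7.5 against 11.72, 10.48 and 11.29 on day 1 (-3.72 ± 0.8, adjusted p = 0.00651), with the same order of arrays as the muscle genes. With the 6 arrays alone its call was lost (adjusted p = 0.126). Orm1, a plasma acute phase protein, lay the other way without passing the test (5.38, 6.49 and 5.51 on day 1 and 6.94, 7.85 and 6.78 on day 3, adjusted p = 0.0702). Leaving out 1 array gave 7 to 10 falling members, the fewest without array 3 of day 3.

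Timp1, an inhibitor of matrix metalloproteinases and a classic STAT3 target, differed between the ages. Its young levels were 11.66, 11.61 and 12.67 on day 1 and 11.18, 10.24 and 10.49 on day 3 (-1.35 ± 0.3, adjusted p = 0.00863), while in old callus the change was 0.7. The difference of the changes, -2.05 ± 0.43, passed the test (adjusted p = 0.0419). For Il6 the old change was -2.43 and for Il11 -0.06, and neither difference of changes passed (adjusted p = 0.417 and 0.099). The difference for Timp1 no longer passed without old day 1 array 1 or young day 1 array 2 or 3 or old day 3 array 1 or 2 or young day 3 array 2 or 3 (adjusted p up to 0.126).

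**Figure D1:**
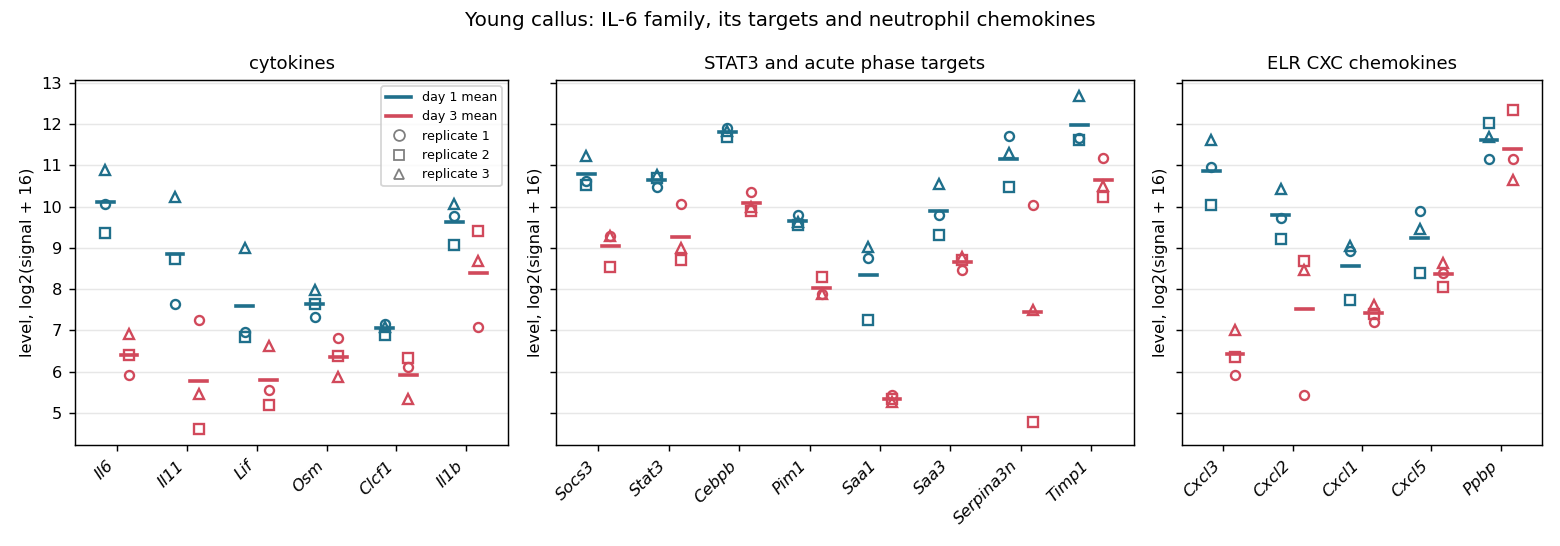
Levels (log2(signal + 16)) of IL-6 family cytokines, STAT3 and acute phase genes and neutrophil-attracting chemokines on the 3 day 1 arrays (blue) and 3 day 3 arrays (red) of young callus; bars are means and symbols mark the replicate number. Il6, Cxcl3, Socs3 and Saa1 show no overlap between the days, while Il1b, Cxcl5 and Ppbp overlap.

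Chemokines were called in both directions. Of 5 measured chemokines with the ELR motif, which bind the neutrophil receptor CXCR2, 3 fell. Cxcl3 had levels of 10.96, 10.03 and 11.62 on day 1 and 5.92, 6.35 and 7.01 on day 3, a change of -4.45 ± 0.47 (21.8-fold, adjusted p = 5.4e-05). Cxcl2 measured 9.71, 9.21 and 10.43 on day 1 and 5.44, 8.67 and 8.45 on day 3; the 3 arrays of day 3 were all lower, array 1 by far the most (-2.27 ± 0.65, adjusted p = 0.0302). Cxcl1 fell by 1.15 ± 0.33 (adjusted p = 0.028). Ppbp, a chemokine precursor stored in platelets, overlapped between the days at 11.16, 12.02 and 11.68 on day 1 and 11.16, 12.35 and 10.64 on day 3 (adjusted p = 0.766). Csf3r, the receptor of the neutrophil growth factor G-CSF, and the chemokine receptor Cxcr2 were not called: Csf3r had levels of 9.38, 9.17 and 10.02 on day 1 and 8.46, 9.5 and 9.19 on day 3, and Cxcr2 had 7.88, 7.7 and 8.42 on day 1 and 7.17, 7.77 and 6.95 on day 3. None of 12 neutrophil granule genes and 2 of 14 mature neutrophil genes were called by limma, the latter, Il1r2 and the histamine-making enzyme Hdc, both falling, and 1 granule gene was under 0.05 before adjustment.

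Among 21 other chemokines 5 rose and 1 fell. Ccl8, a ligand of monocyte and T cell receptors, rose from 7.09, 7.28 and 7.37 to 9.73, 8.86 and 11.35 (2.74 ± 0.54, adjusted p = 0.00403). Cxcl12, the marrow stromal chemokine that retains blood stem cells, rose from 9.41, 9.47 and 9.44 to 10.71, 11.67 and 11.1 (1.72 ± 0.25, adjusted p = 0.000576). Both were higher on each day 3 array than on any day 1 array. With the mean of a gene's probe sets in place of the brightest, Cxcl12 lost its call (adjusted p = 0.0536). Ccl12, a monocyte chemokine of the mouse, rose by 1.6 ± 0.43, and the interferon-induced T cell attractants Cxcl9 and Cxcl10 rose by 1.49 ± 0.44 and 1.31 ± 0.36. Cxcl14, a chemokine of epithelia and fibroblasts, went the other way with 10.79, 10.72 and 11.46 on day 1 and 8.67, 8.35 and 8.87 on day 3 (-2.36 ± 0.24, adjusted p = 3.75e-05); its old change was -0.83 and the difference of changes, -1.53 ± 0.34, passed (adjusted p = 0.0494) but not without old day 1 array 1 or young day 1 array 1, 2 or 3 or old day 3 array 1, 2 or 3 or young day 3 array 2 or 3 (adjusted p up to 0.147). Of 11 measured chemokine receptors 2 rose, 1 fell and 8 were not called (median -0.03), where 9.16% rose and 6.86% fell over all genes. On every day 3 array 2 of the 11 lay lower. The risen members were Cx3cr1 and Ccr2. Cx3cr1, the fractalkine receptor, had 6.62, 6.19 and 5.65 on day 1 and 7.4, 8.01 and 7.83 on day 3 (1.59 ± 0.29, adjusted p = 0.00243). Ccr2, the receptor for monocyte exit from marrow, had 9.62, 8.9 and 9.38 on day 1 and 9.69, 11.35 and 10.9 on day 3 (1.35 ± 0.32, adjusted p = 0.0106). Ackr1, a chemokine-binding protein of venules and red cell precursors, fell by 1.29 ± 0.29 (adjusted p = 0.0087). Leaving out 1 array ended the calls of Cxcl1 (without day 1 array 1 or 3 or day 3 array 2 or 3, adjusted p up to 0.122), Cxcl2 (without day 1 array 1 or 3 or day 3 array 1, adjusted p up to 0.114), Ccl12 (without day 1 array 1 or 2 or day 3 array 3, adjusted p up to 0.108), Cxcl9 (without day 1 array 1 or 2 or day 3 array 2 or 3, adjusted p up to 0.177), Cxcl10 (without day 1 array 1, 2 or 3 or day 3 array 1, adjusted p up to 0.0652) and Ccr2 (without day 3 array 3, adjusted p up to 0.056).

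Genes induced by glucocorticoids, the adrenal stress hormones, were high on day 1 and fell on day 3 in 13 of 15 measured; none rose and the median change was -1.41. In old callus 12 fell, with a median of -1.39, where 11.9% of all genes fell. Zbtb16, a zinc finger protein with low basal level in most tissues, had levels of 9.29, 9.39 and 9.64 on day 1 and 8.49, 6.52 and 7.18 on day 3 (-2.05 ± 0.37, adjusted p = 0.00243). Fkbp5, a co-chaperone that dampens the glucocorticoid receptor, had 9.7, 9.68 and 9.68 on day 1 and 8.9, 7.86 and 8.4 on day 3 (-1.3 ± 0.23, adjusted p = 0.00186). Tsc22d3, also called GILZ, which carries anti-inflammatory effects of the hormone, fell by 1.62 ± 0.31 (adjusted p = 0.00369), and Klf9, a hormone-induced transcription factor, fell by 1.41 ± 0.31 (adjusted p = 0.00823). The metallothioneins Mt1 and Mt2, which bind zinc and also answer to metals and IL-6, fell (-2.32 ± 0.28 and -2.34 ± 0.37). Errfi1, an inhibitor of the EGF receptor, and Cdkn1a, the cell cycle inhibitor p21, fell (-1.87 ± 0.27 and -1.87 ± 0.23). In all of these the days did not overlap, array 1 of day 3 lay nearest to day 1 in Zbtb16, Fkbp5 and Klf9, and each kept its call whichever of the 6 arrays was left out. Sgk1, a salt-handling kinase, and Sult1a1, a sulfotransferase, overlapped and were not called (adjusted p = 0.16 and 0.409). The count over the 6 fits without 1 array was 10 to 14, and it was 6 with the 6 arrays alone.

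Clock genes moved in both directions. The molecular clock runs on the activators CLOCK and BMAL1 (gene name Arntl here) and on repressors of the PER, CRY and REV-ERB families, and the hour at which callus was taken is not given. Of 17 measured, 7 fell and 2 rose, with a median of -0.74. In old callus 6 fell and 2 rose, where 11.9% of all genes fell and 18.4% rose. Per1, which is both a clock repressor and a direct glucocorticoid target, had levels of 8.48, 8.05 and 8.24 on day 1 and 6.14, 6.25 and 6.38 on day 3 (-2 ± 0.21, adjusted p = 5.15e-05). Nfil3, a repressor of clock output that is also induced by cytokines, had 9.89, 9.6 and 10.2 on day 1 and 7.63, 7.53 and 7.51 on day 3 (-2.34 ± 0.26, adjusted p = 7.19e-05). Arntl fell by 1.26 ± 0.24 (adjusted p = 0.00309), Cry2 fell by 0.93 ± 0.19 (adjusted p = 0.00495), and Bhlhe40, a repressor that also answers to hypoxia, fell by 1.66 ± 0.32 (adjusted p = 0.0035). Dbp, an output gene activated by CLOCK and BMAL1, rose from 7.19, 6.19 and 6.76 to 9.34, 7.95 and 8.79 (1.98 ± 0.41, adjusted p = 0.00524), and all 6 of these kept their call whichever array was left out. Nr1d2, which encodes REV-ERB beta, rose by 0.86 ± 0.27, and Cry1 and Npas2 fell (-0.74 ± 0.19 and -1.27 ± 0.38). Nr1d1 had no common level on day 3, at 8.11, 4.75 and 5.71 (adjusted p = 0.228), while Clock, Per2 and Per3 had changes of 0.64, -0.44 and 0.41 that did not pass. The calls that depended on 1 array were Nr1d2 (without day 1 array 1, 2 or 3 or day 3 array 1 or 3, adjusted p up to 0.14), Cry1 (without day 1 array 3 or day 3 array 3, adjusted p up to 0.0875) and Npas2 (without day 1 array 1 or 3 or day 3 array 2 or 3, adjusted p up to 0.165).

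Immediate early genes, which are switched on within minutes of a stimulus, fell in 14 of 29 measured and rose in none (median -0.90). In old callus 12 of them fell, where 11.9% of all genes did. Egr1, a growth-factor-induced zinc finger protein, had levels of 12.16, 10.21 and 10.04 on day 1 and 8.83, 7.73 and 8.36 on day 3 (-2.5 ± 0.42, adjusted p = 0.0016), with array 1 of day 1 well above the rest. Fosl1, an AP-1 subunit also active in bone formation, had 8.92, 8.36 and 8.47 on day 1 and 6.58, 5.62 and 6.5 on day 3 (-2.35 ± 0.27, adjusted p = 0.000112). Dusp1, a phosphatase that shuts off MAP kinases, had 10.98, 10.34 and 10.84 on day 1 and 8.3, 8.53 and 8.72 on day 3 (-2.2 ± 0.22, adjusted p = 3.72e-05), and Dusp5, its nuclear relative for ERK, fell by 2.66 ± 0.51 (adjusted p = 0.00324). Ccn2, connective tissue growth factor, had 11.79, 11.36 and 11.84 on day 1 and 9.44, 9.5 and 9.62 on day 3 (-2.15 ± 0.32, adjusted p = 0.000698). Atf3 and Maff, stress-induced transcription factors, fell (-1.63 ± 0.25 and -2.02 ± 0.28); Myc fell by 1.28 ± 0.21 and Nr4a3, an orphan nuclear receptor, fell by 1.97 ± 0.24. The founding members of the class were not called: Fos had levels of 9.52, 8.47 and 9.37 on day 1 and 8.58, 8.93 and 8.97 on day 3 and Jun had 9.16, 9.04 and 8.74 on day 1 and 9.13, 7.42 and 8.75 on day 3, both overlapping (adjusted p = 0.568 and 0.295). Rcan1, a calcineurin inhibitor outside this list, had levels of 12.1, 11.8 and 12.34 on day 1 and 9.19, 8.08 and 8.62 on day 3 (-3.45 ± 0.28, adjusted p = 3.73e-06). The count of falling members was 12 to 16 over the 6 fits without 1 array.

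Dusp1, Btg2 and Maff were the 3 of 23 immediate early genes with a matched promoter that hold the cAMP response element TGACGTCA, searched on both strands, and all 3 fell; 10 of the 23 fell. The element lies in 1.79% of all 32851 promoters of the RefSeq table (250 bases before to 50 after a start, GRCm38.p6) and in 3.26% of those of measured genes. The Dusp1 stretch is shown because it holds the element in full, at chr17:26508582-26508641 (minus strand), upstream of the start site, with the match in capitals. A match is a description of the letters.
Dusp1: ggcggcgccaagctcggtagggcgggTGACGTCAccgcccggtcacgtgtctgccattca

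**Figure D2:**
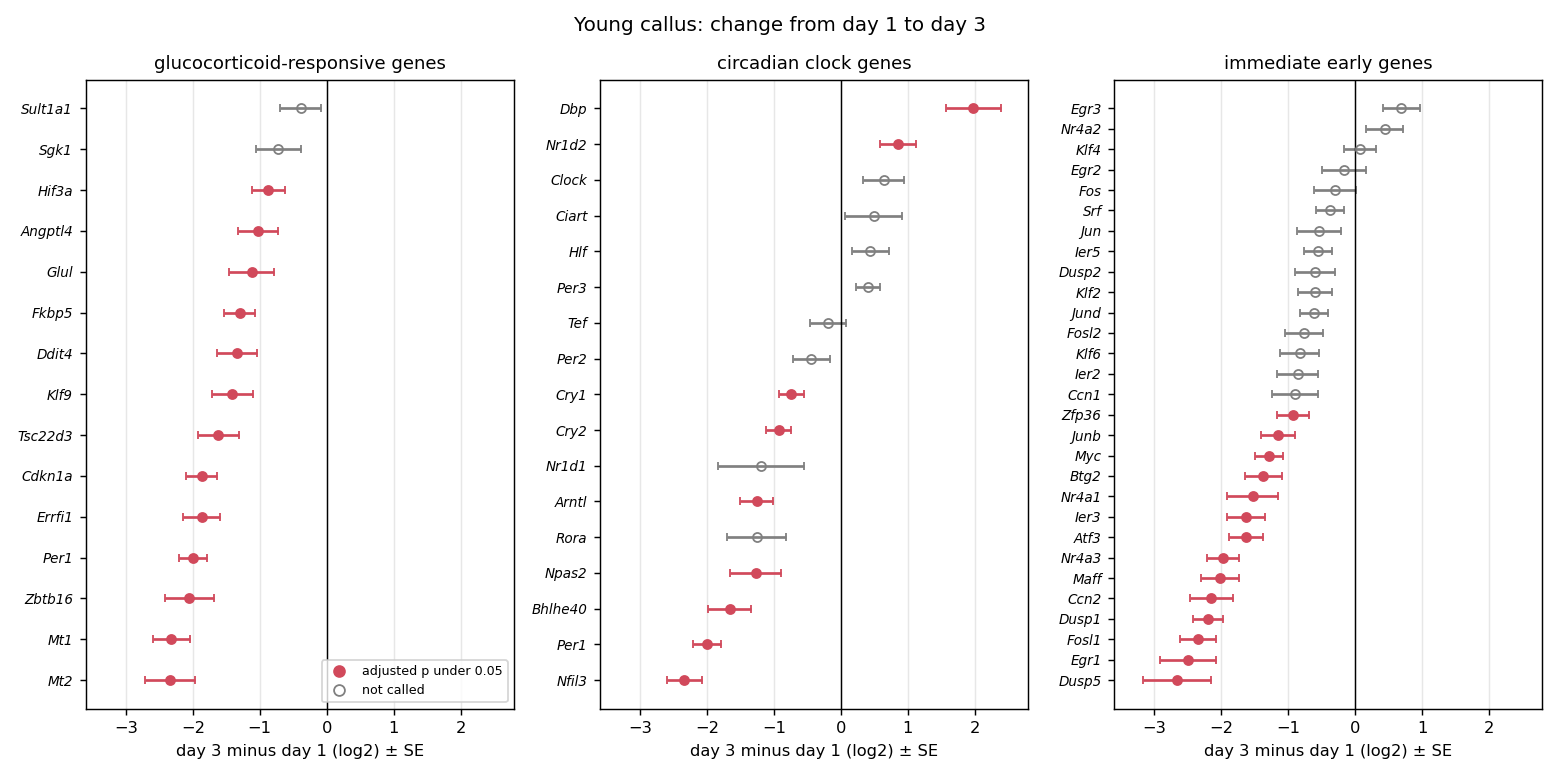
Change from day 1 to day 3 (log2, ± SE of the fit) of every measured glucocorticoid-responsive, circadian clock and immediate early gene in young callus; filled red points passed the adjusted p threshold and open grey points did not. Of 15, 17 and 29 genes, 13, 7 and 14 fell, and 0, 2 and 0 rose.

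Many macrophage genes rose. Of 18 genes of resident and alternatively activated macrophages, 9 rose and none fell (median 0.97), and 9 or 10 rose in each fit that left out 1 array. Their summed signal, which follows the brightest members, overlapped between the days: 18500 to 23600 on day 1 and 16300 to 25400 on day 3. The members named below are all among the risen. The other 9 were not called, and 1 of the 18 lay lower on every day 3 array. With array weights, or with the muscle score as a covariate, 2 fell. Aif1 had levels of 6.29, 6.15 and 6.36 on day 1 and 8.09, 10.14 and 10.36 on day 3 (3.26 ± 0.42, adjusted p = 0.000211), with array 1 of day 3 the lowest of its day. Ms4a7, a membrane protein of tissue macrophages, had 7.22, 7.43 and 7.25 on day 1 and 9.04, 10.47 and 10.68 on day 3 (2.76 ± 0.32, adjusted p = 9.06e-05), and Cbr2, a carbonyl reductase, had 6.4, 6.92 and 5.72 on day 1 and 9.55, 8.52 and 9.84 on day 3 (2.96 ± 0.39, adjusted p = 0.000284). Folr2, a folate receptor of tissue-resident macrophages, and Stab1, a scavenger receptor, rose by 2.33 ± 0.38 and 1.49 ± 0.26. Adgre1, an adhesion receptor that marks mouse macrophages, went from 7.91, 8.09 and 7.96 to 9.01, 9.61 and 9.69 (1.45 ± 0.2, adjusted p = 0.000381). In none of these did the days overlap, which for Aif1, Ms4a7 and Cbr2 was a condition of their choice. Fcrls, an Fc receptor-like protein outside this list, rose by 2.92 ± 0.34 (adjusted p = 0.000117). The old change was close in size for Aif1 (2.92), Ms4a7 (3.18) and Cbr2 (2.85), and no difference of changes passed for these 3 (adjusted p = 0.832, 0.698 and 0.949).

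Genes of macrophages that take up dying cells and lipid rose in 6 of 20 measured and fell in 1 (median 0.48). The other 13 were not called, and 2 of the 20 lay lower on every day 3 array. Those described next are all among the risen members. Trem2 was near the floor on day 1, at 4.18, 4.5 and 4.48, and reached 7.37, 8.32 and 8.73 on day 3 (3.75 ± 0.28, 13.5-fold, adjusted p = 3.73e-06). Gpnmb, a glycoprotein of phagocytes and osteoclasts, had 6.04, 6.66 and 6.56 on day 1 and 8.65, 8.66 and 9.71 on day 3 (2.58 ± 0.36, adjusted p = 0.000399). Fabp5, a fatty acid carrier, had 10.08, 10.05 and 10.09 on day 1 and 11.71, 12.63 and 13.22 on day 3 (2.44 ± 0.28, adjusted p = 8.61e-05). Apoe, the lipoprotein that removes cholesterol from cells, went from 10.36, 10.02 and 9.8 to 11.81, 12.24 and 12.37 (2.08 ± 0.27, adjusted p = 0.000251), and Cd68, a lysosomal marker of phagocytes, rose by 1.25 ± 0.24 (adjusted p = 0.00364). Complement followed, with 5 of 15 genes risen and none fallen (median 0.49). The chains of C1q, which tags debris for uptake and is made by macrophages, rose together: C1qa rose by 1.77 ± 0.32, C1qb rose by 1.85 ± 0.25 and C1qc rose by 1.66 ± 0.28. C3ar1, the receptor for the C3a fragment, rose by 1.28 ± 0.22, and Cfp, properdin, rose by 1.04 ± 0.24. Of the genes named here Cfp (without day 3 array 3, adjusted p up to 0.0512) alone lost its call on leaving out an array.

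Lysosomal genes rose in 16 of 25 measured and 1 fell (median 0.69, against 0 over all genes). Ctss, a cathepsin protease of antigen-presenting cells, had levels of 10.34, 10.42 and 10.42 on day 1 and 11.5, 12.28 and 12.54 on day 3 (1.71 ± 0.21, adjusted p = 0.000162). Ctsh, another cathepsin, had 9.33, 9.22 and 9.37 on day 1 and 9.91, 11.29 and 11.04 on day 3 (1.44 ± 0.29, adjusted p = 0.0048), and Lgmn, the asparagine-cutting protease legumain, had 9.03, 9.04 and 8.88 on day 1 and 10.28, 9.92 and 10.71 on day 3 (1.32 ± 0.23, adjusted p = 0.00194). Lipa, the acid lipase that frees cholesterol, rose by 1.31 ± 0.22 (adjusted p = 0.00148), and Hexa, a subunit of hexosaminidase, rose by 1.14 ± 0.18 (adjusted p = 0.00106). Each of these was higher on every day 3 array than on any day 1 array. Npl, a gene outside this list that breaks down sialic acid freed from glycoproteins, rose by 2.82 ± 0.35 (adjusted p = 0.000162). Npc1, the membrane protein that exports cholesterol from lysosomes, was the member that fell, from 8.3, 8.8 and 8.56 to 7.88, 7.27 and 7.27 (-1.08 ± 0.24, adjusted p = 0.00883); it was picked after its values were seen. The count of risen members ranged over 9 to 15 when 1 array was left out, 9 without array 3 of day 3, and was 3 with the 6 arrays alone.

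The letters CACGTG, an E-box read by the lysosomal regulator TFEB among many factors, occur in the promoters of 6 of 20 matched lysosomal genes, 4 of them among 13 that rose; the share over all promoters is 7.15% and over measured genes 11.5%. That of Lgmn is shown as an example of a risen member, from chr12:102439110-102439167 (minus strand) in GRCm38.p6, with the E-box in capitals (both strands were searched, and the motif is its own reverse complement).
Lgmn: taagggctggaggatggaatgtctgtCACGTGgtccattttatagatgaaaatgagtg

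Interferon-response genes rose in 8 of 21 measured and none fell (median 0.96). These are antiviral genes switched on by interferons. Ifi27l2a, a small mitochondrial protein, had levels of 8.69, 8.36 and 7.9 on day 1 and 10.36, 10.88 and 11.62 on day 3 (2.64 ± 0.43, adjusted p = 0.00121). Ifit3 and Ifit2, which bind viral RNA, had 6.12, 6.8 and 5.87 on day 1 and 8.83, 7.58 and 8.57 on day 3, and 6.81, 6.62 and 6.14 on day 1 and 7.89, 8.22 and 8.44 on day 3 (2.06 ± 0.47, adjusted p = 0.00898, and 1.66 ± 0.34, adjusted p = 0.00466). Mx1, an antiviral GTPase, had 5.7, 5.71 and 5.69 on day 1 and 7.58, 6.99 and 8.22 on day 3 (1.9 ± 0.45, adjusted p = 0.0115); the 3 day 1 arrays were nearly equal. Rtp4, a chaperone of membrane receptors, and Bst2, tetherin, which holds viruses at the cell surface, rose by 1.67 ± 0.47 and 1.43 ± 0.42. Array 1 of day 3 overlapped day 1 in Bst2. Rsad2, the antiviral enzyme viperin, did not follow: its levels were 11.55, 11.44 and 10.9 on day 1 and 10.14, 10.04 and 9.64 on day 3, lower on every day 3 array without passing the test (-1.36 ± 0.45, adjusted p = 0.0566); it was picked after its values were seen. In old callus 1 of the 21 rose and 1 fell (median 0.51), where 18.4% of all genes rose and 11.9% fell. For no member did the difference of changes between the ages pass limma's test, while 2 were under 0.05 before adjustment.

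The interferon count depended on single arrays. It was 10 without array 1 of day 3, 6 without array 2 and 3 without array 3, and 6, 5 and 4 without array 1, 2 or 3 of day 1. With the muscle score as a covariate it was 4. The calls of Ifi27l2a, Ifit3 and Ifit2 held in every fit without 1 array, and calls were lost for Mx1 (without day 3 array 3, adjusted p up to 0.0692), Rtp4 (without day 1 array 1, 2 or 3 or day 3 array 2 or 3, adjusted p up to 0.122) and Bst2 (without day 1 array 1 or 3 or day 3 array 2 or 3, adjusted p up to 0.153). T and NK cells, a source of interferon gamma, had 1 of 10 measured genes risen and summed signals of 638 to 1040 on day 1 and 437, 1280 and 630 on day 3; their part in the result was not tested.

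Promoters of 15 interferon-response genes were matched, and 11 hold the letters GAAA, any 2 bases and GAAA on either strand, the core of the interferon-stimulated response element, against 3.44% of all promoters and 3.66% of measured genes. Of 4 risen members with a matched promoter, Ifit3 and Bst2 hold it. They are shown for their elements, which stand in capitals on the gene's strand, from chr19:34583347-34583408 (plus strand) and chr8:71537567-71537628 (minus strand) in GRCm38.p6. The capitals of Bst2 are 2 overlapping matches, and 1 of 2 matches in the Ifit3 window is shown.
Ifit3: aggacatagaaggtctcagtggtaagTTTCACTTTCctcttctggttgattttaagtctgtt
Bst2: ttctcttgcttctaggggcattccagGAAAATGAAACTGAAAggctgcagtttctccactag

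**Figure D3:**
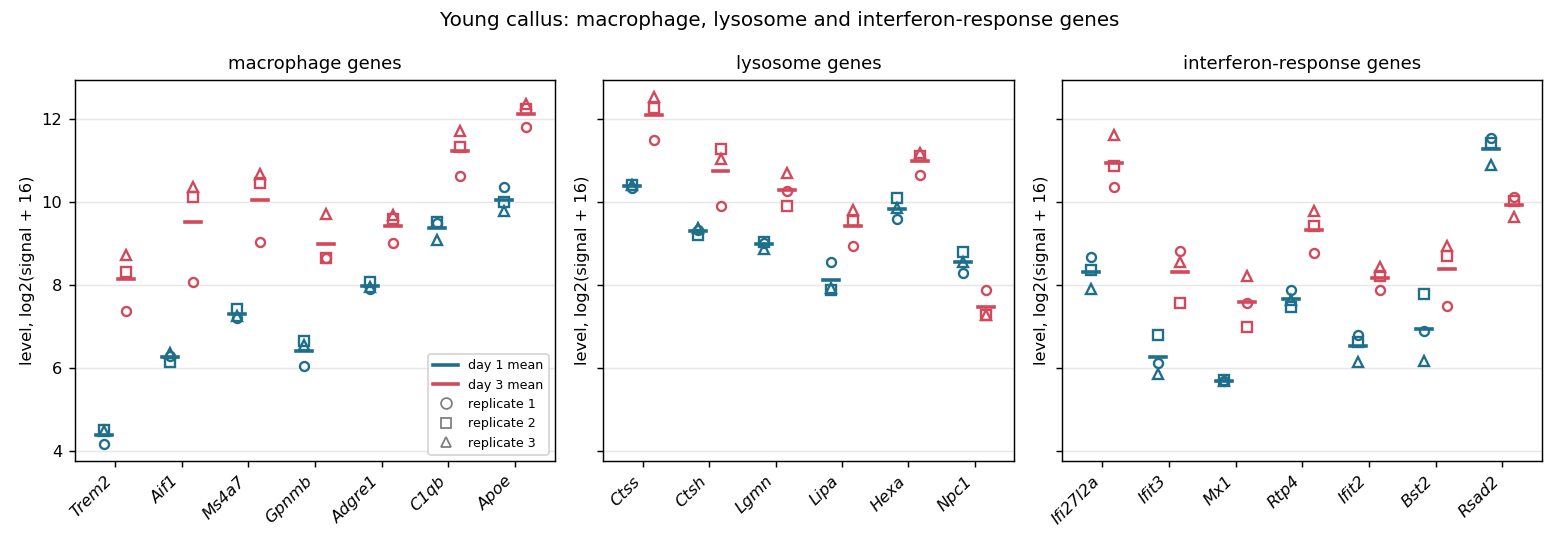
Levels (log2(signal + 16)) of macrophage, lysosomal and interferon-response genes on the 3 day 1 arrays (blue) and 3 day 3 arrays (red) of young callus; bars are means and symbols mark the replicate number. All 7 macrophage genes shown lie higher on every day 3 array, Npc1 and Rsad2 lie lower on every day 3 array, and the days of Bst2 overlap.

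The stress response to amino acid shortage and misfolded protein was higher on day 1: 10 of 23 genes fell and none rose (median -0.43), against 5 fallen and 3 risen in old callus. Over all genes of old callus 11.9% fell and 18.4% rose. Atf4, the transcription factor at the centre of the response, had levels of 11.65, 11.57 and 11.65 on day 1 and 10.37, 10.62 and 10.53 on day 3 (-1.12 ± 0.13, adjusted p = 0.000112). Chac1, an ATF4 target that degrades glutathione, had 9.3, 9.41 and 9.35 on day 1 and 8.16, 6.08 and 7.51 on day 3 (-2.1 ± 0.42, adjusted p = 0.00408). Herpud1, which helps clear misfolded protein from the endoplasmic reticulum, had 10.38, 10.36 and 10.32 on day 1 and 9.92, 8.82 and 8.64 on day 3 (-1.22 ± 0.24, adjusted p = 0.00424). Trib3, a pseudokinase that restrains ATF4, and Asns, which makes asparagine, fell (-1.44 ± 0.33 and -1.33 ± 0.33), and Dnajb9, a chaperone partner of the endoplasmic reticulum, fell by 0.96 ± 0.25. No member's difference of changes between the ages passed limma's test, while 5 were under 0.05 before adjustment. Between 4 and 11 members fell when 1 array was left out (4 without array 3 of day 3, 5 without array 1 of day 1), and 1 fell with the 6 arrays alone. Calls that ended when an array was left out were those of Trib3 (without day 3 array 3, adjusted p up to 0.0539), Asns (without day 1 array 1 or day 3 array 3, adjusted p up to 0.0805) and Dnajb9 (without day 1 array 1 or 2 or day 3 array 2 or 3, adjusted p up to 0.0604).

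Chac1, Trib3, Asns and Herpud1 are the 4 of 22 matched members whose promoter window holds TGATGNAA on either strand, the core of the amino acid response element bound by ATF4, and all 4 fell. The letters occur in 3.97% of all promoters and 2.92% of those of measured genes. The window of Atf3, an immediate early gene and ATF4 target, holds them too. The stretches are shown so that the elements can be set side by side, in capitals on the gene's strand: Chac1 at chr2:119351023-119351082 (plus strand), Trib3 at chr2:152344028-152344057 (minus strand), Asns at chr6:7693210-7693258 (minus strand), Herpud1 at chr8:94386291-94386350 (plus strand) and Atf3 at chr1:191183410-191183469 (minus strand), all in GRCm38.p6. In Chac1, Herpud1 and Atf3 the same run of letters, TTGCATCA, stands on the gene's strand, and the Trib3 element lies just after the annotated start.
Chac1: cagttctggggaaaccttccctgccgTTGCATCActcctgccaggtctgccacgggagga
Trib3: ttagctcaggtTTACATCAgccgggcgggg
Asns: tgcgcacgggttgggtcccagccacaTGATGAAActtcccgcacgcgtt
Herpud1: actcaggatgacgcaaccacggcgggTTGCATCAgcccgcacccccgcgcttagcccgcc
Atf3: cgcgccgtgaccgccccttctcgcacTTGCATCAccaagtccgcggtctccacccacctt

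Heat shock genes fell in 6 of 16 measured and 1 rose (median -0.42). Hspb1, the small heat shock protein HSP25, had levels of 13.75, 13.57 and 13.88 on day 1 and 11.93, 8.01 and 11.32 on day 3 (-3.32 ± 0.65, adjusted p = 0.00403), with array 2 of day 3 far below the others. Hspa1a and Hspa1b, near-identical inducible HSP70 genes whose probe sets may share signal, fell (-1.69 ± 0.37 and -2.31 ± 0.44). Bag3, an HSP70 partner abundant in muscle, had 9.8, 10.07 and 10.14 on day 1 and 9.45, 7.37 and 7.78 on day 3 (-1.8 ± 0.38, adjusted p = 0.00585). Array 2 of day 3, the lowest in Hspb1 and Bag3, is also the array with the least sarcomere signal; with the muscle score as a covariate the count was 6, and with the 6 arrays alone none fell. Hspe1, the mitochondrial chaperonin HSP10, went the other way with 9.59, 10.74 and 10.74 on day 1 and 10.81, 11.69 and 11.84 on day 3 (1.09 ± 0.29, adjusted p = 0.0221). Its call was lost without array 1 of day 1, or array 2 or 3 of day 3 (adjusted p up to 0.112). The heat shock element, searched as GAA, any 2 bases, TTC, any 2 bases and GAA on both strands, is in the promoters of 4 of 14 matched members (Hsph1, Hspd1, Hspe1 and Chordc1) and 0.603% of all promoters (0.557% of those of measured genes). Hspe1 is shown as the member that rose, from chr1:55088033-55088097 (plus strand) in GRCm38.p6, with 2 overlapping matches in capitals.
Hspe1: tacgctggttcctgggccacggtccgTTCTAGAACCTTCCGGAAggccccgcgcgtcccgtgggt

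Vessel and clotting genes changed in few members. Over all genes 9.16% rose and 6.86% fell. Thbd, thrombomodulin, which turns thrombin into an anticoagulant, had levels of 11.58, 11 and 11.6 on day 1 and 8.55, 7.7 and 7.98 on day 3 (-3.32 ± 0.26, 9.96-fold, adjusted p = 3.73e-06), a wide gap between the days. Of 17 clotting and fibrinolysis genes, 3 fell and 2 rose. Tfpi2, a protease inhibitor of the matrix, and Plaur, the urokinase receptor, fell (-2.58 ± 0.62 and -1.06 ± 0.3), while Tfpi, the inhibitor of tissue factor, rose by 1.34 ± 0.34. Of 27 endothelial genes 5 fell and 1 rose (median -0.19). Aplnr, the apelin receptor of sprouting vessels, rose from 6.85, 7.63 and 8.09 to 10.69, 10.25 and 9.87 (2.75 ± 0.38, adjusted p = 0.000381). Selp, P-selectin, which slows leukocytes on the vessel wall, fell by 1.03 ± 0.21 (adjusted p = 0.00477), and Flt1, a VEGF receptor, and Vwf, von Willebrand factor, fell (-1.02 ± 0.23 and -1.63 ± 0.43). The endothelial list gave 1 to 6 falling members on leaving out 1 array, the fewest without array 3 of day 3. Calls were lost on leaving out 1 array for Tfpi2 (without day 1 array 3 or day 3 array 3, adjusted p up to 0.07), Plaur (without day 1 array 1 or 3 or day 3 array 1 or 3, adjusted p up to 0.122), Tfpi (without day 1 array 1 or 3 or day 3 array 2, adjusted p up to 0.0789), Flt1 (without day 3 array 3, adjusted p up to 0.0507) and Vwf (without day 1 array 2 or 3 or day 3 array 3, adjusted p up to 0.0932).

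Growth factors split. Hbegf, an EGF receptor ligand released by injured and myeloid cells, had levels of 10.04, 8.86 and 10.05 on day 1 and 7.61, 7.07 and 7.06 on day 3 (-2.4 ± 0.34, adjusted p = 0.00048), and Fgf1, a fibroblast growth factor, had 8.88, 8.6 and 9.23 on day 1 and 7.23, 6.07 and 7.52 on day 3 (-1.96 ± 0.38, adjusted p = 0.00339). Vegfa, the main growth factor of vessels, fell by 0.85 ± 0.16 (adjusted p = 0.00302). Igf1, insulin-like growth factor 1, a product of macrophages and mesenchymal cells that drives bone growth, rose from 8.33, 8.11 and 8.4 to 10.4, 9.4 and 10.2 (1.72 ± 0.23, adjusted p = 0.000276), and all 4 of its probe sets rose. Ptn, the heparin-binding factor pleiotrophin, rose by 1.1 ± 0.22 (adjusted p = 0.00407). In all, 3 of 28 rose and 5 fell (median -0.07), where 9.16% rose and 6.86% fell over all genes. Among hypoxia and glycolysis genes, Slc2a1, the glucose transporter GLUT1, had 10.34, 10.19 and 10.38 on day 1 and 8.58, 8.55 and 8.73 on day 3 (-1.68 ± 0.22, adjusted p = 0.000284), and Hk1, a hexokinase, fell by 1.24 ± 0.26 (adjusted p = 0.00585). Of the 26 on that list 6 fell and 1 rose (median -0.55); 13 fell without array 1 of day 3 and 4 without any other array.

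In the Wnt pathway 4 of 30 measured genes rose and 1 fell (median -0.01). In old callus 14 rose and 3 fell, where 18.4% of all genes rose and 11.9% fell. Sfrp2 had levels of 5.47, 6.3 and 6.56 on day 1 and 10, 8.03 and 9.66 on day 3, a rise of 3.12 ± 0.39 (8.68-fold, adjusted p = 2e-04). Frzb, a related Wnt-binding protein of cartilage, had 4.37, 4.5 and 5.58 on day 1 and 7.1, 5.75 and 6.03 on day 3 (1.47 ± 0.36, adjusted p = 0.0144). Sfrp1 and Dkk2, further secreted Wnt regulators, rose by 0.96 ± 0.29 and 1.45 ± 0.45, and Sfrp4, the member that fell, fell by 1.51 ± 0.38. The young counts lie near the shares over all genes, 9.16% risen and 6.86% fallen. They moved to between 1 and 4 risen and 0 and 4 fallen when 1 array was left out. In the TGF-beta and BMP pathway 4 of 31 fell and 2 rose. The activin subunits Inhba and Inhbb, TGF-beta relatives active in inflammation, fell (-2.17 ± 0.41 and -1.56 ± 0.27) (adjusted p = 0.00322 and 0.00176), and their binding protein Fstl3 had 6.65, 6.86 and 7.27 on day 1 and 5.36, 6.13 and 4.55 on day 3 (-1.58 ± 0.31, adjusted p = 0.0036). Bambi, a decoy receptor of the pathway, rose by 1.36 ± 0.37 (adjusted p = 0.023). With 1 array fewer, calls were lost for Frzb (without day 1 array 1 or 2, adjusted p up to 0.0677), Sfrp1 (without day 1 array 1, 2 or 3 or day 3 array 1 or 3, adjusted p up to 0.114), Dkk2 (without day 1 array 1 or 2 or day 3 array 1, 2 or 3, adjusted p up to 0.132), Sfrp4 (without day 1 array 1 or 3 or day 3 array 3, adjusted p up to 0.0775) and Bambi (without day 1 array 1 or 3 or day 3 array 2, adjusted p up to 0.1).

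Genes of the collagen-rich matrix were mostly not called from day 1 to day 3 in young callus, where most rose in old callus. Of 19 collagens 1 rose and 2 fell in the young (median 0.03), against 15 risen in the old (median 1.68). Of 31 matrix proteoglycans and glycoproteins 3 rose and 3 fell (median 0.03), against 18 risen and 1 fallen (median 1.26), and of 17 collagen processing genes 1 rose and 1 fell (median 0.24), against 14 risen (median 1.45). The share called over all genes was 9.16% rising and 6.86% falling in young callus, and 18.4% and 11.9% in old callus. The test of the difference itself passed for 3, 4 and 3 members of the 3 lists, all lower in the young, where it passed for 67 of 12921 genes overall (0.519%). The median difference of changes was -1.58, -1.37 and -1.27 in the 3 lists and -0.06 over all genes. The ages differed on both days in list score, the mean level of the members relative to all 18 arrays. On day 1 the mean scores of the 3 lists were -0.58, -0.55 and -0.57 in young callus and -1.39, -1.19 and -1.11 in old callus. On day 3 they were -0.64, -0.47 and -0.43 in young callus and 0.15, 0.2 and 0.29 in old callus. The difference of changes thus holds a lower start in old callus too.

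The called members span fibrils, their organisers and their cross-linkers. Col5a1, which sets the width of collagen I fibrils, had young levels of 9.83, 10.16 and 10.87 on day 1 and 11.42, 9.55 and 9.98 on day 3, a change of 0.03, against 2.68 in old callus (difference -2.65 ± 0.59, adjusted p = 0.0495). Its partner chain Col5a2 changed by 0.52 against 2.58 (adjusted p = 0.0349), and Col12a1, a fibril-associated collagen, by -0.81 against 1.86 (adjusted p = 0.0419). Aspn, asporin, a small proteoglycan of periosteum and ligament, had young levels of 8.66, 8.58 and 9.24 on day 1 and 9.83, 8.79 and 10.51 on day 3 and changed by 0.88 against 3.64 (adjusted p = 0.0199). Srpx2, a secreted sushi-repeat protein, changed by 0.91 against 3.71 (adjusted p = 0.0272). Lox, the enzyme that cross-links collagen, changed by -0.38 against 1.81, and Plod2, a lysyl hydroxylase for cross-links, by -0.05 against 1.93 (adjusted p = 0.0378 and 0.0349). Lum, Has2 and Bmp1 were the other members that passed (adjusted p = 0.0349, 0.0426 and 0.0349). Col5a1, Col5a2, Lox, Plod2, Lum, Has2 and Bmp1 were named after their values were seen.

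These counts of 3, 4 and 3 were 0, 0 and 0 without array 1 or 2 of old day 3, and 14, 17 and 12 without array 1 of young day 3. Without array 2 of young day 3 they were 0, 2 and 1, and without array 3 they were 0, 1 and 0. They were 0, 4 and 1 without array 1 of old day 1 and 7, 7 and 4 without array 3 of old day 3. Without array 1, 2 or 3 of young day 1 they were 1, 3 and 2, then 1, 3 and 1, then 0, 1 and 0. With arrays centred on their medians they were 13, 17 and 14, and with the 12 arrays of the contrast alone 0, 0 and 0. The median difference of each list stayed below 0 in all of these fits. Scores of the collagen list were -0.76, -0.73 and -0.24 on young day 1 and 0.25, -1.15 and -1.02 on young day 3, so that array 1 of day 3 was the highest of the 6.

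**Figure D4:**
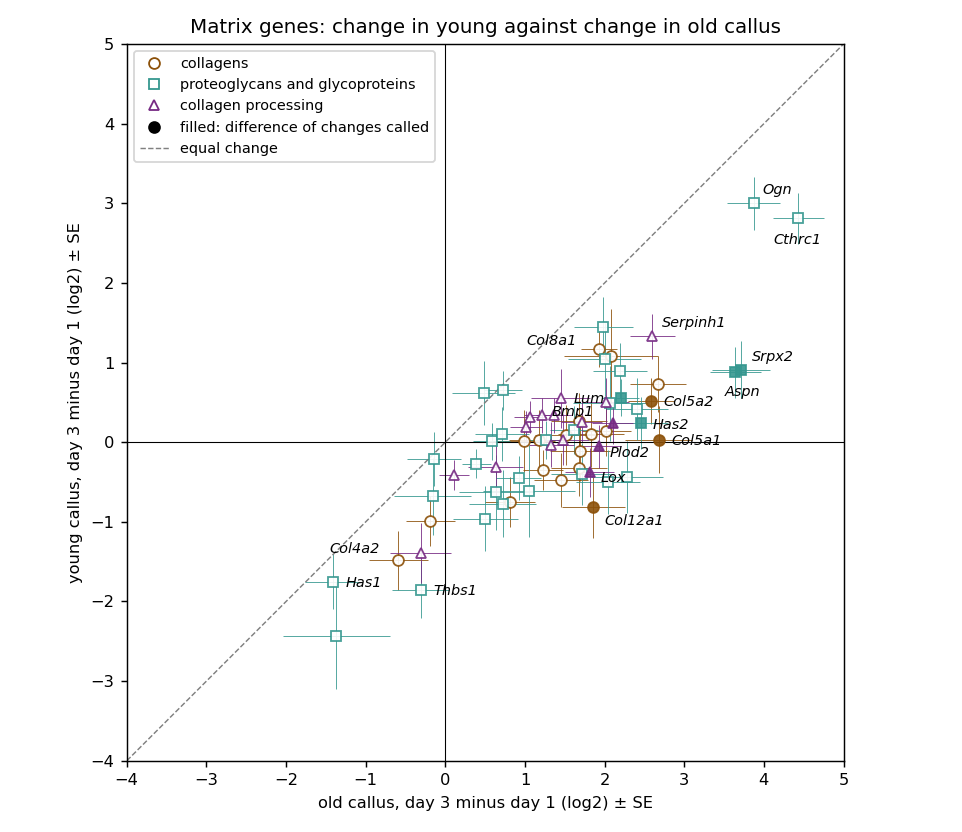
Change from day 1 to day 3 (log2, ± SE of the fit) of matrix genes in young callus (vertical) against old callus (horizontal), for collagens (circles), proteoglycans and glycoproteins (squares) and collagen processing genes (triangles); the dashed line marks equal change. Filled symbols are the 10 genes whose difference of changes passed the adjusted p threshold, all of them under the line.

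Some matrix genes did rise in young callus. Ogn, osteoglycin, a small leucine-rich proteoglycan of bone, had levels of 6.84, 8.03 and 8.13 on day 1 and 10.58, 10.21 and 11.2 on day 3 (3 ± 0.33, adjusted p = 8.13e-05), and Cthrc1, a secreted protein of activated fibroblasts, had 7.39, 7.63 and 8.12 on day 1 and 10.57, 10.8 and 10.22 on day 3 (2.81 ± 0.32, adjusted p = 9.81e-05). Serpinh1, the collagen chaperone HSP47, had 9.12, 9.84 and 10.28 on day 1 and 11.58, 10.89 and 10.76 on day 3 (1.33 ± 0.28, adjusted p = 0.00558). Col8a1, a short-chain collagen of vessels and injured tissue, rose by 1.17 ± 0.23 (adjusted p = 0.00357). Thbs1, thrombospondin 1, a matrix protein of the early wound, fell from 9.79, 9.51 and 10.35 to 8.3, 8.13 and 7.66 (-1.85 ± 0.36, adjusted p = 0.00395), and Has1, a hyaluronan synthase, fell by 1.75 ± 0.35 (adjusted p = 0.00449). Each of these 6 kept its call whichever of the 6 arrays was left out. Col4a2, a basement membrane collagen, fell by 1.48 ± 0.37 (adjusted p = 0.0161), which was lost without array 1 or 3 of day 1, or array 2 or 3 of day 3 (adjusted p up to 0.0853).

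Bone and cartilage genes showed early changes in single members. Of 20 osteoblast and bone matrix genes 4 rose and 2 fell (median -0.04), where 9.16% rose and 6.86% fell over all genes. In old callus 11 of the 20 rose and 1 fell, where 18.4% of all genes rose and 11.9% fell. The mean list score was -0.16 on day 1 and -0.04 on day 3 in young callus, and -1.06 and -0.06 in old callus. The ages thus lay apart on day 1 and close on day 3. Smpd3, a sphingomyelinase needed for bone mineralization, had levels of 5.09, 6.23 and 5.73 on day 1 and 8.11, 7.96 and 7.6 on day 3 (2.21 ± 0.35, adjusted p = 0.00103), and Tmem119, a membrane protein of differentiating osteoblasts, had 7.47, 7.59 and 7.56 on day 1 and 9.36, 9.61 and 8.74 on day 3 (1.7 ± 0.3, adjusted p = 0.00194). Pdpn, podoplanin, carried by early osteocytes, fibroblasts and lymphatic vessels, fell from 10.85, 10.93 and 11.19 to 9.54, 9.18 and 9.99 (-1.42 ± 0.19, adjusted p = 0.000336). Of 22 cartilage genes 3 rose and 2 fell (median 0.45), beside the same shares over all genes. Matn3, a cartilage matrix protein, had 4.15, 4.62 and 4.26 on day 1 and 5.17, 7.35 and 5.61 on day 3 (1.7 ± 0.4, adjusted p = 0.0113), with array 2 of day 3 highest. Its call was lost with the mean of its probe sets in place of the brightest, and with the muscle score as a covariate. Col2a1, the collagen that defines cartilage, was not called, with 7.56, 7.41 and 7.29 on day 1 and 8.34, 9.58 and 5.77 on day 3 (adjusted p = 0.653); array 2 of day 3 was the highest and array 3 the lowest of the 6. Prg4, lubricin, made by joint surface and synovial cells, fell from 13.29, 12.41 and 13.46 to 11.89, 9.12 and 9.88 (-2.75 ± 0.57, adjusted p = 0.0055). Mmp23, a membrane metalloproteinase, rose by 1.74 ± 0.3 (adjusted p = 0.00167), and Timp4, a metalloproteinase inhibitor, fell by 1.81 ± 0.41 (adjusted p = 0.00898).

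Skeletal muscle stress genes fell. Xirp1 had levels of 11.82, 11.16 and 11.45 on day 1 and 8.63, 4.14 and 7.01 on day 3 (-4.89 ± 0.73, adjusted p = 0.000672), and Ankrd2, a stretch-induced repeat protein of the sarcomere, had 12.53, 12.4 and 12.69 on day 1 and 9.34, 5.76 and 9.59 on day 3 (-4.31 ± 0.69, adjusted p = 0.00116). Pdk4, a kinase that spares glucose in fasting muscle, had 13.31, 13.29 and 13.41 on day 1 and 9.93, 6.92 and 10.07 on day 3 (-4.36 ± 0.63, adjusted p = 0.000501). Lmcd1, a LIM-domain protein of muscle, had 12.34, 11.45 and 12.16 on day 1 and 9.19, 6.7 and 8.55 on day 3 (-3.83 ± 0.49, adjusted p = 2e-04), and Klhl40, a stabiliser of thin filaments, fell by 3.91 ± 0.89 (adjusted p = 0.00916). In these 5 every day 3 array lay below every day 1 array, which was a condition of their choice, and array 2 was by far the lowest. The calls held whichever of the 6 arrays was left out. In total 7 of 17 muscle stress genes, a list that does not hold Lmcd1 and Klhl40, fell (median -2.28). The count was 6 to 13 over the fits without 1 array. With the muscle score as a covariate 6 fell and 1 rose, and the median change was -0.83.

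Structural muscle genes gave no stable call. Acta1, skeletal muscle actin, had levels of 14.37, 14.37 and 14.23 on day 1 and 14.37, 9.81 and 13.64 on day 3, so that array 1 of day 3 matched day 1 and array 2 was far lower (adjusted p = 0.115). Of 27 fast and common sarcomere genes 2 fell; the count was 26 without array 1 of day 3 and 0 without any other array. Of 16 slow muscle genes 5 fell, 14 without array 1 of day 3, 3 without array 2 or 3 of day 1 and 0 without the others. Their median changes of -2.05 and -2.50 stood beside a wide spread on day 3: the list score on day 3 was 1.2, -4.6 and -0.22 against 0.92 to 1.11 on day 1 for the first list. Fat genes had the same order of arrays on day 3, with scores of 1.19, -0.88 and 0.17, against 0.44 to 0.50 on day 1. Pnpla2, the lipase that opens fat stores, also active in muscle, fell by 2.23 ± 0.44 (adjusted p = 0.00379). Pparg, the regulator of fat cell formation that macrophages also carry, rose from 6.27, 5.31 and 4.46 to 6.71, 7.75 and 7.39 (1.93 ± 0.38, adjusted p = 0.00424). Adipoq, which encodes adiponectin and marks fat cells, was higher on every day 3 array but not called (9.07, 8.69 and 8.7 on day 1 and 10.94, 9.85 and 10.3 on day 3, adjusted p = 0.112).

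Red cell precursor genes fell in 14 of 19 measured (median -1.99), a count that rested on array 3 of day 3. Klf1, the master regulator of the lineage, had levels of 10.4, 10.41 and 10.18 on day 1 and 8.43, 8.81 and 6.08 on day 3 (-2.56 ± 0.68, adjusted p = 0.0214), and Slc4a1, the anion exchanger band 3, had 12.58, 12.29 and 11.81 on day 1 and 10.34, 9.47 and 8.33 on day 3 (-2.84 ± 0.83, adjusted p = 0.0318). All 3 arrays of day 3 lay below day 1 in both, array 3 the lowest. Without array 3 of day 3 none of the 19 was called; the count was 18 without array 1, 13 without array 2, and 0, 3 and 9 without array 1, 2 or 3 of day 1. Of 20 heme and iron handling genes 5 fell and 2 rose (median -0.48). In old callus 6 fell and 4 rose, where 11.9% of all genes fell and 18.4% rose. In young callus Urod fell by 1.36 ± 0.33, Ppox fell by 1.32 ± 0.3, Alad fell by 1.29 ± 0.33 and Fech fell by 1.2 ± 0.29, and Tfrc, the transferrin receptor, fell by 1.37 ± 0.34. The members that rose were Blvra and Flvcr1 (0.76 ± 0.2 and 0.69 ± 0.19), named after their values were seen, and none of the list rose without array 2 or 3 of day 3. None of the 5 falls kept its call without array 3 of day 3, and without array 1 of day 1 the list had 2 falling. Not every call survived the loss of an array: those ended were Klf1 (without day 1 array 1, 2 or 3 or day 3 array 3, adjusted p up to 0.123), Slc4a1 (without day 1 array 1, 2 or 3 or day 3 array 2 or 3, adjusted p up to 0.146), Urod (without day 1 array 1 or day 3 array 3, adjusted p up to 0.0732), Ppox (without day 3 array 3, adjusted p up to 0.0557), Alad (without day 1 array 2 or day 3 array 3, adjusted p up to 0.0777), Fech (without day 1 array 1 or day 3 array 3, adjusted p up to 0.075) and Tfrc (without day 1 array 1 or day 3 array 3, adjusted p up to 0.0844).

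**Figure D5:**
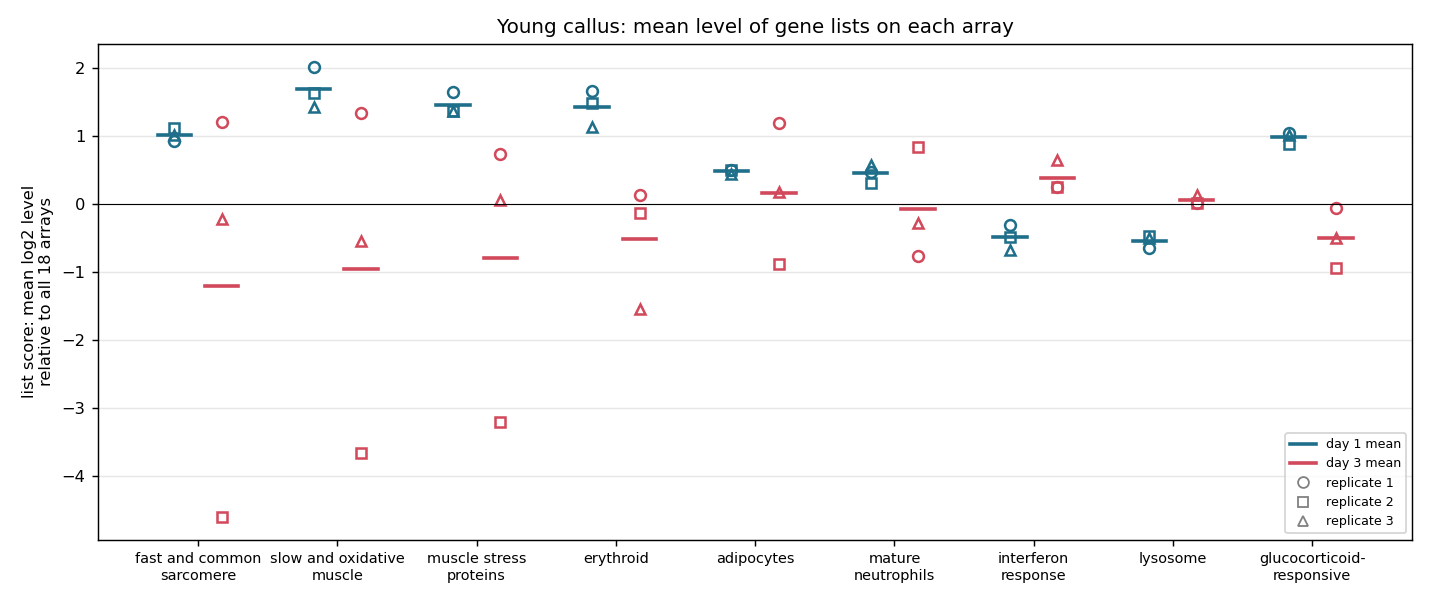
Score of 9 gene lists (mean over members of the level minus its mean over all 18 arrays, log2) on the 3 day 1 arrays (blue) and 3 day 3 arrays (red) of young callus; bars are means and symbols mark the replicate number. Fast and common sarcomere scores on day 3 run from -4.6 to 1.2 around a day 1 range of 0.92 to 1.11. Interferon, lysosomal, glucocorticoid-responsive, erythroid, slow muscle and muscle stress scores of the days do not overlap.

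By day 5 the levels of young callus had gone on in different directions, given here as means ± SD of 3 arrays. Il6 was at 6.04 ± 0.21, and Cxcl3 at 6.31 ± 0.07, close to their day 3 values. Trem2 at 8.12 ± 0.32 and Apoe at 12.68 ± 0.03 were within or just above the day 3 range. The matrix genes were higher than on any day 3 array: Col5a1 was at 12.87 ± 0.2, Aspn at 11.21 ± 0.23, Cthrc1 at 12.03 ± 0.48 and Serpinh1 at 12.52 ± 0.31. The cartilage collagen Col2a1 was at 12.75 ± 0.26 and Matn3 at 8.87 ± 0.45, again above all 3 day 3 arrays. Ifi27l2a at 9.2 ± 0.43 was below all 3 of its day 3 values.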

How the data were processed

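Total RNA extracted with Trizol was labelled with biotin and hybridised by the standard Affymetrix protocol, per the labels' protocols. The deposited table holds 1 signal intensity per probe set and array; the software behind it is not given in the sources used here. Every array's mean without its lowest and highest 2% is 150, so the authors' intensities were scaled to a common trimmed mean. Array medians of log2 intensity then ran from 5.7 to 6.47, a range of 0.77, above the 0.5 set as the rule for quantile normalization. Levels are log2(intensity + 16), quantile normalized; 64 control probe sets were left out, and 27746 of 45101 probe sets, above their array's median on at least 3 arrays, were tested. limma 3.58.1 (R 4.3.3; lmFit, eBayes with trend) fitted 1 mean per group over all 18 arrays, with Benjamini-Hochberg adjustment over the probe sets tested. The number of arrays limits the precision, and no depth applies. The scripts were tested on simulated data.

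Probe sets took their genes from GEO's platform annotation of 2016 (34958 with 1 gene, 932 with several, 9211 with none), updated through RefSeq; a gene is its brightest tested probe set, 12921 genes in all. The 53 gene lists hold 1092 symbols, of which 934 were measured. Members, lists and tests were chosen with earlier results of these data known. Genes named in the text come from the 15 strongest called rises and 15 strongest called falls without overlap, the 6 most changed members of each list, all members of the signalling, immediate early, clock and glucocorticoid lists, and the 8 strongest differences of changes in either direction; exceptions are marked. The difference of changes is the young change minus the old change in the same fit. Promoters are those of the RefSeq table (GRCm38.p6), matched by symbol for 10410 of 12921 genes. Deviations of same-numbered arrays from their group means had correlations of -0.11, -0.0722 and 0.0368. With 3 arrays a day these values cannot exclude a pairing or a shared batch. Replicate numbers were not used as pairs in the main fit. Alternatives covered scaling, pseudocount, filter, variance model, the arrays in the fit, a muscle covariate and each array left out.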

Additional observations from a re-analysis of the deposited data

Results flagged for a closer look

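Between the ages, 164 of 27746 probe sets (0.591%) had a difference of changes, the young change from day 1 to day 3 minus the old one, that passed the test in the model of all 18 arrays; 64 were higher and 100 lower in the young. Each gene in these paragraphs is listed for that reason. In the matrix, the collagens Col5a1 (-2.65 ± 0.59), Col5a2 (-2.06 ± 0.4) and Col12a1 (-2.68 ± 0.56) differed, as did Aspn (-2.76 ± 0.46), Srpx2 (-2.8 ± 0.5), Lum (-1.64 ± 0.32) and Has2 (-2.23 ± 0.47). The processing enzymes Lox, Plod2 and Bmp1 differed by -2.19 ± 0.44, -1.98 ± 0.39 and -1.87 ± 0.37. Emilin1, an elastic fibre protein, changed by 0.35 in young and 3.1 in old callus (-2.76 ± 0.43, adjusted p = 0.0148), and Thbs3, a thrombospondin of cartilage and bone, by -1.09 and 2.77 (-3.85 ± 0.76, adjusted p = 0.0349). C1qtnf1, a secreted C1q-related protein, changed by -0.44 and 2.22 (-2.66 ± 0.39, adjusted p = 0.011). Timp1 (-2.05 ± 0.43) and Cxcl14 (-1.53 ± 0.34) complete the secreted genes.

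Cdk5rap2, a centrosome protein, had young levels of 6.06, 5.85 and 6.28 on day 1 and 6.04, 5.31 and 4.38 on day 3 and a difference of -3.08 ± 0.46, adjusted p = 0.011. Nol4l had 6.21, 7.11 and 6.15 on day 1 and 6.09, 4.34 and 4.55 on day 3 and a difference of -2.98 ± 0.61, adjusted p = 0.0419. In the other direction, Erdr1, a multicopy gene of the sex chromosomes, fell by 1.12 in young and by 4.98 in old callus (3.86 ± 0.5, adjusted p = 0.00778), and Mid1, its neighbour at the pseudoautosomal boundary, changed by -0.39 and -3.34 (2.95 ± 0.43, adjusted p = 0.011). Psg28, a pregnancy-specific glycoprotein, changed by -1.19 and -3.96 (2.77 ± 0.48, adjusted p = 0.0249). Epb41l5, a protein of the cell cortex, rose by 1.27 ± 0.27 in the young and changed by -0.9 in the old (2.17 ± 0.39, adjusted p = 0.0265). The dim genes Adgrv1 (2.6 ± 0.5), Dach1 (2.33 ± 0.51), Duoxa2 (2.1 ± 0.42) and D5Ertd615e (1.98 ± 0.42) changed little in the young, by 0.16, 0.72, 0.08 and 0.35, none of which passed. The old mice were retired breeders as well as older, so age and breeding history cannot be told apart. The Actb 3' to 5' ratio also differed between old day 1 (2.27 to 2.67) and old day 3 (1.37 to 1.6), and its part was not tested.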

How the results depend on the processing

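Of 191 called genes chosen for the text, 64 kept their call under every alternative and none changed direction. The main count of 3690 probe sets was between 2998 and 3836 with the values as deposited, arrays centred, a pseudocount of 1 or 64, no filter or one at the 75th percentile, no variance trend, or the replicate block (3529). It was 2521 with the muscle score as a covariate, 2409 without probe sets that may cross-hybridise, 9944 with array weights and 336 with the 6 arrays alone, and ran from 1517 to 7040 when 1 array was left out. With arrays centred, 73.7% of calls were higher; with the 6 arrays alone, 43.5%.

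The count of differences between the ages, 164 (39.0% higher), was 280 with the values as deposited (60.0% higher), 2067 with arrays centred (6.97% higher, where the median of all probe sets moved from -0.047 to -0.416), 108 and 211 with pseudocounts of 1 and 64 (23.1% and 51.7%), 82 with no filter, 95 with the filter at the 75th percentile, 121 without cross-hybridising probe sets, 222 without the variance trend, 2535 with array weights, 105 with the replicate block, 4 with the 12 arrays alone and 239 with the muscle covariate. It ran from 6 to 1736 when 1 array was left out. The replicate block ended the call of 3 of the 191 genes. The mean of a gene's probe sets in place of the brightest ended 13, among them Cxcl12, Matn3, Sfrp1, Slc4a1, Tfrc and Erdr1. Jun, not called, changed by 0.04 with the muscle covariate in place of -0.54. Array 1 of young day 3 kept muscle signal near day 1, array 2 had little muscle signal, and array 3 little red cell signal; with 3 arrays a day, counts move with each. The causes of these shifts were not tested.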

Other observations

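Cholesterol synthesis genes, which answer to the transcription factor SREBP2, rose in 4 of 16 measured and none fell (median 0.37). In old callus 9 rose, where 18.4% of all genes did. Of 31 cell cycle genes 3 rose (median -0.10), a share near the 9.16% of all genes that rose, and none rose without array 2 or 3 of day 3; 8 rose in old callus. Platelet genes fell in 3 of 13 (median -0.75): Itga2b, the platelet fibrinogen receptor chain, had levels of 9.67, 10.04 and 9.85 on day 1 and 8.34, 9.32 and 7.76 on day 3 (-1.38 ± 0.38, adjusted p = 0.0253), a call lost without day 1 array 1, 2 or 3 or day 3 array 3, while Pf4, a chemokine of platelet granules, had 12.13, 12.47 and 12.42 on day 1 and 12.29, 13.02 and 12.97 on day 3 and was not called (adjusted p = 0.276). None of 13 MHC class II and dendritic cell genes was called in limma's test in young callus, where 6 rose in the old; 1 of the 13 was under 0.05 before adjustment in the young. No difference of changes between the ages passed for the 13, and 3 were under 0.05 before adjustment. Gstt1, a glutathione transferase, and Fkbp7, a prolyl isomerase of the endoplasmic reticulum, were among the largest rises, with levels of 4.3, 6.47 and 4.81 on day 1 and 8.04, 7.19 and 8.06 on day 3 for Gstt1 and 7.77, 7.26 and 8.03 on day 1 and 9.71, 10.85 and 10.25 on day 3 for Fkbp7 (2.57 ± 0.54, adjusted p = 0.00576, and 2.58 ± 0.31, adjusted p = 0.000117).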
